A study of Mus musculus with 16 samples.

Results

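Genes whose symbol ends in Rik carry the provisional name of a RIKEN full-length cDNA clone. The suffix marks how a transcript was first found and says nothing of what it does: such genes include protein coding genes that still lack a name of their own and many long noncoding RNAs (lncRNAs), transcripts that are not translated and of which a few are known to act in the nucleus or at the gene beside them. Many lncRNAs start close to the promoter of a coding gene on the other strand, an arrangement called head to head, and others lie inside or across a coding gene. The Rik-named rows described here were chosen by a mean level of at least 1 TPM (a level scaled for transcript length and for the total of each library) over 16 libraries. Of 293 Rik-named rows among 5921 gene rows held, 69 reached that level; 224 were below it, and 18 of these stood at 0 in every library. The level chose the rows, so their levels are given as a description. The rule did not use the contrasts between groups. The rows nearest to the limit were 2810414N06Rik (mean 1.02 TPM) and 9630013K17Rik (1.09 TPM) inside it, and B230208H11Rik (0.979 TPM) and 5930403N24Rik (0.867 TPM) outside it. Of the 69, 2810414N06Rik and 4930568G15Rik would have averaged under 1 TPM without their highest group.

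RNA-seq was done on ventricles dissected from mouse embryos at E11.5, with 4 libraries in each of 4 groups. Conditional knockout (cKO) ventricles and their controls came from an exon 2-3 line, in which loxP sites flank exons 2 and 3 of Atf4 (batch 1), and from an exon 2 line, in which they flank exon 2 only (batch 2). Atf4 encodes a transcription factor of the integrated stress response. In both cKO groups the floxed allele was recombined by Xmlc2-Cre, which the labels describe as specific to cardiomyocytes. By that description Atf4 would stay intact in the other cells of the ventricle, which was not measured here. Whether the controls carried a floxed allele or the Cre is not given, and the genotype label reads C57BL/6 WT on all 16 samples. The labels call the replicates biological without tying them to litters. Because each line makes up 1 batch, the effect of a line cannot be told apart from that of its batch; cKO libraries were compared with controls of the same line. The study compared the ventricular transcriptomes of the 2 cKO lines.

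The rows held lie on chromosomes 1, 10 and part of 11 (GRCm38), and Atf4 itself was not analysed here. Libraries of a group correlated at 0.982 to 0.992 on the log2 scale. The 4 cardiomyocyte markers held (Tnni1, Tnnt2, Pln and Myl7) summed to 10803–12804 TPM in the exon 2-3 line and 7956–9412 TPM in the exon 2 line, while the neuronal markers held (Map2, Syt1 and Syt2) summed to 0.322–2.14 TPM. TPM keeps no depth, so read numbers per value are unknown. In ventricle tissue, fewer cells of a type and less RNA per cell cannot be told apart.

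Promoters of the rows on which the results turn are shown first, from RefSeq (GRCm38.p6), each from 250 bases before to 50 bases after the RefSeq start. B230206L02Rik is shown because it had the largest called cKO effect. 2900009J06Rik is shown because its cKO effects had opposite signs in the 2 lines. 3110009E18Rik is shown because its level split the libraries within groups. Capitals mark, in this order, a match to the p53 half-site consensus, the stretch between the start of 2900009J06Rik and the start of Ccnt2 on the other strand, and the bases shared by the starts of 3110009E18Rik and Dbi on the other strand.
B230206L02Rik, chr11:94133206-94133505, plus strand: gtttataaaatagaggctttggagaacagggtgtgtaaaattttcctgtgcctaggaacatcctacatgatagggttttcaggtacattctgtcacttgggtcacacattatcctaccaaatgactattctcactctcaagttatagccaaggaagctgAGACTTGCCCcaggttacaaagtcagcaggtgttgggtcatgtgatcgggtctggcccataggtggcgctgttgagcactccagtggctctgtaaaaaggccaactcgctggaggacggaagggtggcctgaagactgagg
2900009J06Rik, chr1:127774005-127774304, minus strand: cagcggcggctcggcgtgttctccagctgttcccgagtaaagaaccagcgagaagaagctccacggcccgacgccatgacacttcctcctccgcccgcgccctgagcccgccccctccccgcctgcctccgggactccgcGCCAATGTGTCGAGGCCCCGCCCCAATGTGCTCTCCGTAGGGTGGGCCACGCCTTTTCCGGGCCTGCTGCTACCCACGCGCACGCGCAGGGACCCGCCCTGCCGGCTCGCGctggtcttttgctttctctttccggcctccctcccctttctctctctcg
3110009E18Rik, chr1:120120937-120121236, plus strand: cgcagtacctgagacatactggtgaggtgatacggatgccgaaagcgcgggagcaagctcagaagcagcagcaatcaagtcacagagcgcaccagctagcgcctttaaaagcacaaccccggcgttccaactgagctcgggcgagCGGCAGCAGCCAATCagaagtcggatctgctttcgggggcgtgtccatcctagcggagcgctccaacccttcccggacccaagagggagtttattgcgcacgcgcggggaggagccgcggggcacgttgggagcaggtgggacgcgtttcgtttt

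The B230206L02Rik window had a GC content of 48.3% and an observed-to-expected CpG ratio of 0.233, and the match in capitals lies 81 bases before the start. The 3110009E18Rik window also holds 1 match to the p53 half-site consensus, which is not in capitals. The other two windows were GC-rich, at 69.0% for 2900009J06Rik and 61.3% for 3110009E18Rik, with CpG ratios of 0.959 and 1.00. The RefSeq start of 3110009E18Rik used for its window lies 105 bases from the start of its row. Promoter windows were given for 58 of the 69 Rik-named rows. Their median GC content was 61.0% and their median CpG ratio 0.788, against 52.7% and 0.384 over 32851 RefSeq promoter windows of the same length. Those windows were not limited by level or to 1 per gene, whereas the Rik-named rows were chosen by level and gave 1 window each. The sets are thus unlike, and a comparison with windows of the other rows tested was not made. On both strands, CCAAT was found in 22 of the 58 windows (37.9%, against 37.4% of all), TATAAA in 6 (10.3%, against 13.6%) and the p53 half-site consensus in 7 (12.1%, against 8.36%). The letters TGATGNAA, a core of sites bound by ATF4 with C/EBP partners, were in 0 of the 58 windows and in 3.97% of all windows. A match or its absence describes the letters in these windows only.

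By RefSeq type, 37 of the 69 Rik-named rows were lncRNAs, 30 were protein coding, 1 was a miscellaneous RNA and 1 a transcribed pseudogene. They lay on chromosomes 1 (21 rows), 10 (19) and 11 (29). Their levels were low: the median of their mean levels was 4.48 TPM, against 15.9 TPM over all 2620 rows with a mean of at least 1 TPM. The lncRNAs had a median of 2.69 TPM and the coding rows 7.09 TPM. Of the 69, 19 averaged over 10 TPM and 16 under 2 TPM, and together they held 0.531–0.576% of the TPM held in a library.

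The 5 rows of highest level were 9530068E07Rik (mean 173 TPM), the lncRNA 2410006H16Rik (98.7 TPM), 2610507B11Rik (89.7 TPM), 0610010K14Rik (85.7 TPM) and the lncRNA 2810025M15Rik (62.3 TPM). RefSeq gives Kct2, Kiaa0100 and Bap18 as further names of the 3 coding rows among them. 2410006H16Rik (chromosome 11, 62602877–62604806, plus strand) contains Snord49b, Snord49a and Snord65 on its own strand. These are box C/D small nucleolar RNAs, a class that guides methylation of ribosomal RNA and is commonly cut from introns of host transcripts. The 3 small RNAs averaged 5.2, 9.12 and 8.29 TPM, below their host. For 0610010K14Rik, 46.6% of the exonic bases are shared with Gm21988 on the same strand, so its level is uncertain.

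By the coordinates of the rows held, 37 of the 69 Rik-named rows overlapped no other row. Of the rest, 28 overlapped a row on the other strand only and 4 a row on their own strand only. Any overlap was thus present in 46.4%, against 49.6% of all rows tested. Whether the authors' counting used strand is not given in the sources used here. Without strand, reads from a row and its antisense partner cannot be told apart. Exon models from GENCODE were found for 66 rows. Exons of 28 of them ran across exons on the other strand, for up to 44.4% of the exonic bases in 1700020L24Rik, which crosses the metalloproteinase gene Mmp28. These 28 are not the same set as the 28 overlapping by row coordinates. For example, 2810408I11Rik overlapped no row, yet 8.76% of its GENCODE exonic bases lie under exons of Ccnyl1. Among the overlapping rows, 5 lay wholly inside another gene: A930033H14Rik in Rhobtb1, 9630013K17Rik in Cox10, 4933428G20Rik in Arhgap23 and 1700052K11Rik in Tlk2, all on the other strand, and B230216N24Rik in Pam on the same strand.

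A start on the other strand within 1000 bases, counted whether or not the rows overlapped, was found for 29 of the 69 (42.0%), against 22.5% of all rows tested. Among lncRNAs it was 22 of 37 Rik-named rows (59.5%), against 39.7% of the 141 lncRNA rows tested. Among coding Rik-named rows it was 6 of 30, against 24.8% of all coding rows. For 27 of the 29 the head-to-head partner was itself tested. Some of these pairs overlapped, as 4933439C10Rik and Zkscan17 did over 988 bases. The starts of these pairs lay 1 to 987 bases apart (median 284), and the partner had the higher level in 26 of 27. The exception was 2810025M15Rik at 62.3 TPM beside Rasal2, a Ras GTPase activating protein gene, at 14.2 TPM.

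In the exon 2-3 line, 4 of the 69 Rik-named rows passed the test (limma on log2(TPM + 1), adjusted p under 0.05 by Benjamini-Hochberg over 2620 rows). B230206L02Rik, 4930523C07Rik and 4933428G20Rik were higher in the cKO and 2900009J06Rik was lower. That is 5.8% of the Rik-named rows, against 6.72% of all rows tested (4.16% higher and 2.56% lower). The direction of the called rows depended on the scaling: 3 of 4 were higher with TPM as deposited, 2 of 9 after quantile normalisation, 2 of 8 after centring libraries on their median and 3 of 6 after rescaling without hemoglobin genes. The median log2 difference, cKO minus control, was 0.015 over the Rik-named rows and 0.032 over all rows. The 4 libraries of cKO and control did not overlap for 9 of the 69, 6 of them higher and 3 lower in the cKO, against 14.5% of all rows (9.24% higher and 5.31% lower). All 4 called rows were among the 32 that overlap another row by row coordinates. The 37 that overlap none by row coordinates held 0 called rows, and 9 of them had an unadjusted p under 0.05. Some of these 37 cross GENCODE exons on the other strand. This difference between the sets was not tested. Among 301 rows with a Gm number for a name, 12 passed (3.99%), 6 in each direction.

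B230206L02Rik is an lncRNA of chromosome 11 (94133456–94155770, plus strand), with a longest annotated transcript of 695 bases in 6 exons. It stood at 3.83, 2.68, 2.57 and 2.83 TPM in the exon 2-3 controls and at 12.7, 8.78, 10.7 and 8.75 TPM in the cKO. Every cKO library was above every control library. The mean was 2.98 ± 0.576 TPM (SD, n = 4) in controls and 10.2 ± 1.87 TPM in the cKO, a ratio of 3.44. The log2(TPM + 1) difference was 1.49 (SE 0.14, limma adjusted p = 0.000298). In the exon 2 line its 8 libraries lay between 1.56 and 3.10 TPM, with a difference of -0.15 (SE 0.17, limma adjusted p = 0.999). The difference between the lines' effects was 1.64 (SE 0.23, limma adjusted p = 0.000519). The only row overlapping it, Gm35338 on the other strand, averaged 0.164 TPM. No GENCODE exon of another gene lies under the exons of B230206L02Rik. Whether GENCODE holds an exon model of Gm35338 was not checked. On the same strand, Spag9, a scaffold protein gene of JNK signalling, ends 7362 bases before B230206L02Rik, and Tob1, an antiproliferative gene, starts 54071 bases after it. Tob1 went from 17.4 ± 2.30 to 27.1 ± 2.34 TPM (SD, n = 4) in the exon 2-3 cKO, a log2 difference of 0.62 (limma adjusted p = 0.00736). Spag9 had a difference of 0.23 (limma adjusted p = 0.0845). Both neighbours were also lower in the exon 2-3 controls than in the exon 2 controls. The log2 differences were -0.67 for Tob1 (limma adjusted p = 2.24e-05) and -1.08 for Spag9 (limma adjusted p = 1.79e-08). For B230206L02Rik the control difference was 0.18 (limma adjusted p = 0.386).

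2900009J06Rik is an lncRNA of chromosome 1 (127753617–127774054, minus strand) whose start lies 110 bases from that of Ccnt2, the cyclin T2 gene, head to head. It stood at 5.38, 3.64, 2.67 and 3.34 TPM in the exon 2-3 controls and at 1.72, 1.89, 1.51 and 2.35 TPM in the cKO. In the exon 2 line it stood at 1.17, 1.65, 2.22 and 1.54 TPM in controls and at 2.51, 4.35, 2.72 and 3.31 TPM in the cKO. The groups did not overlap in either line, with the cKO below its controls in the exon 2-3 line and above them in the exon 2 line. The log2 difference was -0.71 (SE 0.17, limma adjusted p = 0.0361) in the exon 2-3 line. It was 0.67 (SE 0.17) in the exon 2 line, where the unadjusted p was 0.00206 and the limma adjusted p 0.703. The difference between these effects was -1.38 (SE 0.25, limma adjusted p = 0.00467). The control groups of the lines themselves differed, at 3.76 ± 1.16 and 1.64 ± 0.436 TPM (SD, n = 4; log2 difference 0.83, limma adjusted p = 0.000886), and these comparisons share the same control libraries.

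Ccnt2, the head-to-head partner, averaged 33.7 ± 2.35 and 37.6 ± 2.29 TPM (SD, n = 4) in exon 2-3 controls and cKO, and 45.9 ± 3.21 and 47.0 ± 3.19 TPM in exon 2 controls and cKO. Its log2 differences were 0.15 (limma adjusted p = 0.230) and 0.03 (limma adjusted p = 0.999), and it did not pass the test in either line. 2900009J06Rik also overlaps Acmsd, an enzyme gene of tryptophan breakdown, on the other strand over 68.2% of its span and 18.7% of its exonic bases. Acmsd averaged 0.216 TPM. The call in the exon 2-3 line was lost without control replicates 1 or 2 or cKO replicates 1, 2 or 3 (limma adjusted p up to 0.102) and with no filter on low values (limma adjusted p = 0.127), while the call on the difference between lines held in all 16 fits that left out 1 library.

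4933428G20Rik is a protein coding row of chromosome 11 (97488514–97500341, minus strand) lying wholly inside Arhgap23, a gene of the plus strand. It stood at 1.53, 1.48, 1.52 and 1.36 TPM in the exon 2-3 controls and at 2.37, 2.16, 2.22 and 2.10 TPM in the cKO. The groups did not overlap, and the log2 difference was 0.38 (SE 0.090, limma adjusted p = 0.0361). Arhgap23 rose with it, from 24.1 ± 1.87 to 34.8 ± 1.58 TPM (SD, n = 4; log2 difference 0.51, limma adjusted p = 0.00226). Exons of Arhgap23 lie under 18.8% of the exonic bases of 4933428G20Rik, and whether reads of the one were counted for the other was not tested. In the exon 2 line 4933428G20Rik stood at 1.79 ± 0.251 and 1.92 ± 0.0895 TPM (SD, n = 4; log2 difference 0.07, limma adjusted p = 0.999). Its difference between lines, 0.31, missed the threshold (limma adjusted p = 0.220). The call was kept without control replicate 3 only, and was lost without each of the other 7 libraries (limma adjusted p up to 0.101). It was also lost after quantile normalisation (limma adjusted p = 0.0726) and median centring (limma adjusted p = 0.0581).

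4930523C07Rik is a protein coding row of chromosome 1 (160044380–160078587, plus strand). It stood at 2.76, 3.36, 2.38 and 3.34 TPM in the exon 2-3 controls and at 3.81, 4.31, 4.91 and 5.13 TPM in the cKO. All 4 cKO libraries were above the controls, with a log2 difference of 0.49 (SE 0.12, limma adjusted p = 0.0408). In the exon 2 line the means were 4.38 ± 0.761 TPM in controls and 3.69 ± 0.451 TPM in the cKO (SD, n = 4), with a log2 difference of -0.19 (limma adjusted p = 0.999). The difference between the lines was 0.68 (SE 0.18, limma adjusted p = 0.0520). Its exon 2-3 control level was below that of the exon 2 controls (log2 difference of controls -0.44, limma adjusted p = 0.00751). Line and batch cannot be told apart in that difference. The only row overlapping it, 4930562F07Rik on the other strand, covers 9.5% of its span and averaged 0.249 TPM. The call was kept without control replicate 4 or cKO replicate 1, and was lost without each of the other 6 libraries (limma adjusted p up to 0.116) and with no filter on low values (limma adjusted p = 0.114).

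**Figure D1:**
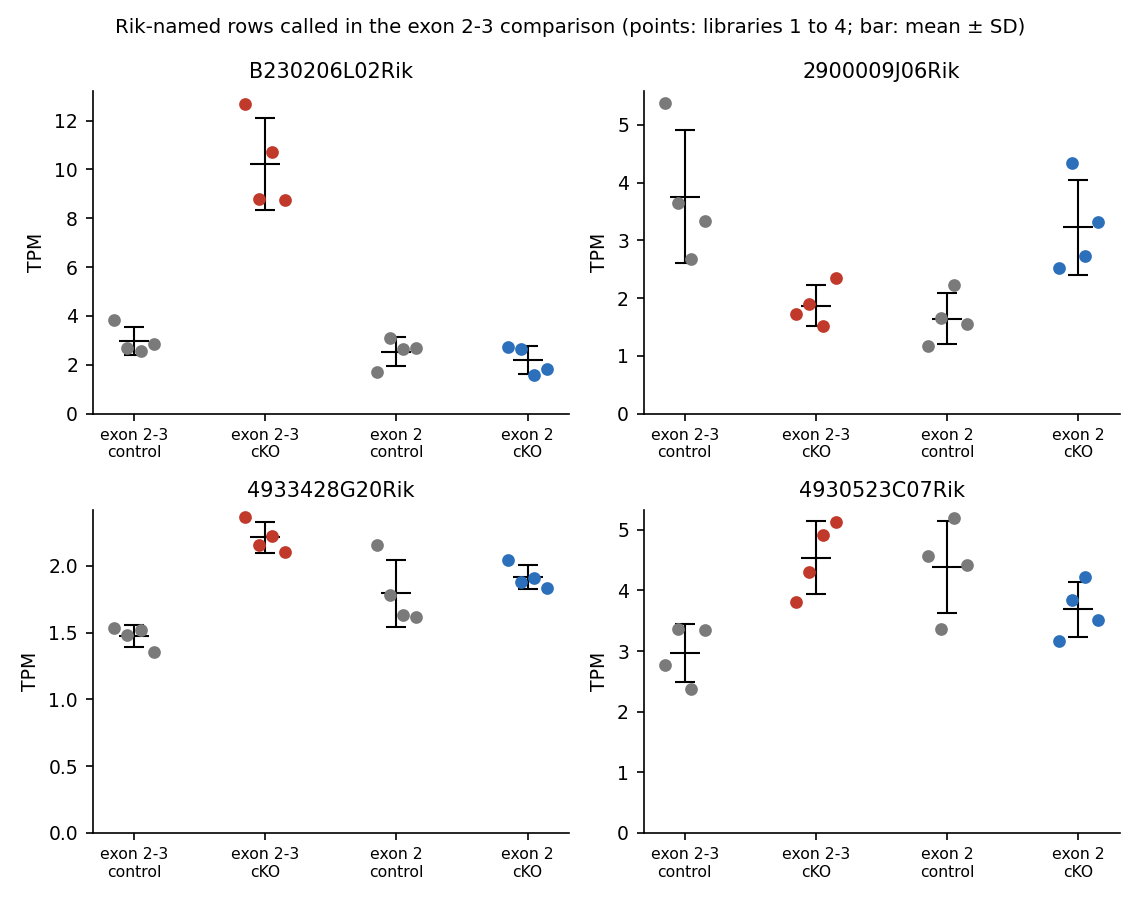
TPM (vertical axes, from 0) of the 4 Rik-named rows called in the exon 2-3 line, in each of 4 groups; points are libraries and bars are the mean ± SD of 4. B230206L02Rik lies at 8.75–12.7 TPM in the exon 2-3 cKO and at 1.56–3.83 TPM in the other 3 groups, and 2900009J06Rik is lower than its controls in one cKO and higher in the other.

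Without reaching the threshold, 5 rows besides the called ones had cKO and control libraries of the exon 2-3 line that did not overlap. They were chosen for naming after their values were seen. A930033H14Rik, inside Rhobtb1 (mean 19.2 TPM), averaged 1.78 ± 0.231 TPM in controls and 2.49 ± 0.202 TPM in the cKO (SD, n = 4, limma adjusted p = 0.0885). Rhobtb1 was also higher without overlap, at 17.1 ± 1.67 and 19.7 ± 0.716 TPM (limma adjusted p = 0.166). 1700020L24Rik, which crosses Mmp28 (mean 5.15 TPM), averaged 6.24 ± 0.461 and 7.95 ± 0.870 TPM (limma adjusted p = 0.0927). Mmp28 was likewise higher without overlap, at 3.98 ± 0.410 and 4.94 ± 0.275 TPM (limma adjusted p = 0.132). Whether reads of these rows were counted for each other was not tested. E230014E18Rik averaged 1.26 ± 0.147 and 1.72 ± 0.148 TPM (limma adjusted p = 0.155). These 3 Rik-named rows had higher values in the cKO, while 1110002J07Rik and C030037D09Rik had lower ones. 1110002J07Rik averaged 1.59 ± 0.200 and 1.01 ± 0.295 TPM (limma adjusted p = 0.125). C030037D09Rik, an lncRNA head to head with the RNA-binding protein gene Msi2, averaged 12.9 ± 0.614 and 10.9 ± 0.718 TPM (limma adjusted p = 0.0897). Msi2 went the other way, at 40.8 ± 6.12 and 49.8 ± 6.29 TPM with overlapping libraries (limma adjusted p = 0.186).

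Markers of other cells moved in the same exon 2-3 libraries. Mesenchymal markers (Col1a1, Col3a1, Col5a2, Dcn and Lum) summed to 291–330 TPM in controls and 427–469 TPM in the cKO, and 4 of the 5 passed the test as higher. Tcf21, the epicardial marker held of 5 listed, averaged 35.4 ± 3.49 and 57.9 ± 3.71 TPM (SD, n = 4; log2 difference 0.70, limma adjusted p = 0.000969). The 4 cardiomyocyte markers gave 0 calls by limma. The 4 erythroid markers spread from 1512 to 11293 TPM over the cKO libraries, also with 0 calls. The endothelial markers held, Sele and Selp, lay at or under 0.549 TPM in every library. The 5 myeloid markers held summed to 96.4–101 TPM in exon 2-3 controls and to a lower 84.0–95.2 TPM in the cKO. Of these 5, 3 were tested, with 0 calls by limma. The part of these cells in the differences of the Rik-named rows was not tested.

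In the exon 2 line, limma called 0 of the 69 Rik-named rows at an adjusted p under 0.05, against 0.0763% of all rows tested, and 7 of 69 had an unadjusted p under 0.05, against 3.21% of all rows. The median log2 difference was -0.032, against -0.012 over all rows. Libraries of cKO and control did not overlap for 3 rows, against 1.83% of all rows (0.687% higher and 1.15% lower): 2900009J06Rik and 6030442K20Rik were above their controls and E030030I06Rik was below. The 3 largest differences were those of 3110009E18Rik, 2900009J06Rik and 6030442K20Rik. 6030442K20Rik is an lncRNA whose start lies 284 bases from that of Rbbp5, a subunit gene of histone H3 lysine 4 methyltransferase complexes. It also overlaps Dstyk, a kinase gene on the other strand at a mean of 12.4 TPM, whose exons lie under 23.7% of its exonic bases. It stood at 0.660, 0.927, 1.20 and 0.613 TPM in controls and at 1.63, 1.27, 1.48 and 2.08 TPM in the cKO, a log2 difference of 0.50 (SE 0.15, limma adjusted p = 0.927). In the exon 2-3 line it averaged 0.987 ± 0.291 and 1.18 ± 0.206 TPM (SD, n = 4; log2 difference 0.14, limma adjusted p = 0.604), and the difference between the lines was -0.36 (limma adjusted p = 0.428). Rbbp5 had a log2 difference of -0.01 in the exon 2 line.

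**Figure D2:**
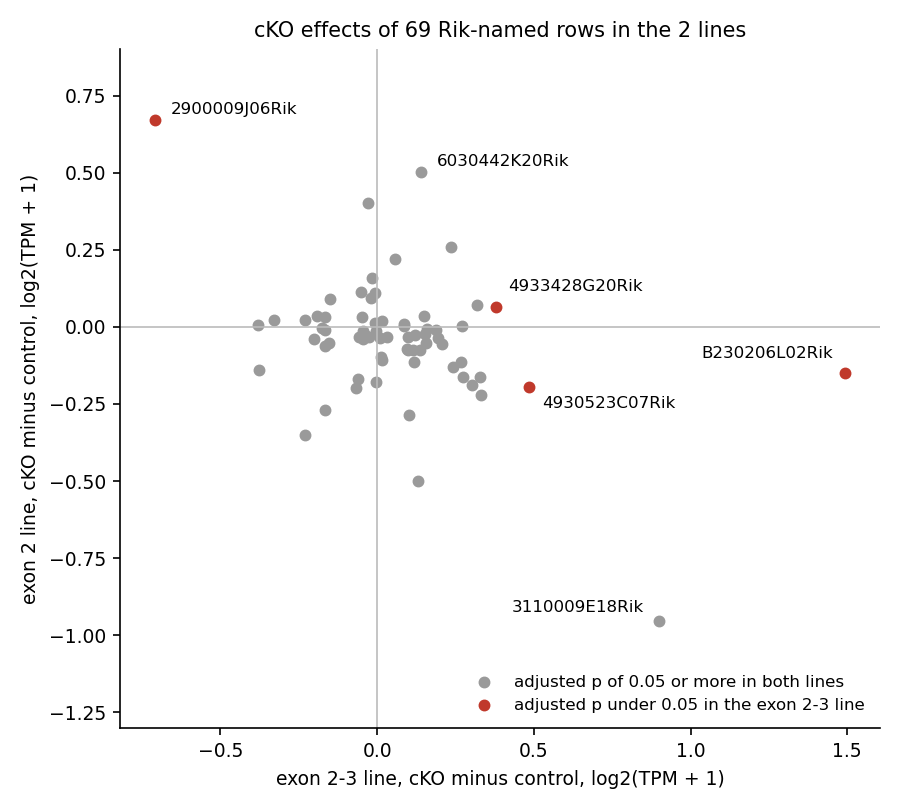
cKO minus control on the log2(TPM + 1) scale for the 69 Rik-named rows, exon 2-3 line on the horizontal axis and exon 2 line on the vertical axis; each point is a row and red marks an adjusted p under 0.05 in the exon 2-3 line. B230206L02Rik (1.49 and -0.15) and 2900009J06Rik (-0.71 and 0.67) stand away from the centre, as does 3110009E18Rik (0.90 and -0.96), which did not pass the test in either line.

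The difference between the lines' cKO effects passed for 2 of 69 Rik-named rows, B230206L02Rik and 2900009J06Rik, which is 2.9%, against 2.37% of all rows (1.6% higher and 0.763% lower). With TPM as deposited 1 of the 2 was higher in the exon 2-3 line, against 3 of 4 after quantile normalisation, 4 of 5 after median centring and 3 of 4 after rescaling without hemoglobin genes. The other rows nearest to the threshold were A930033H14Rik (0.55, limma adjusted p = 0.0515), 4930523C07Rik (0.68, limma adjusted p = 0.0520) and 1700020L24Rik (0.49, limma adjusted p = 0.0624). Each of these 3 had a positive effect in the exon 2-3 line and a negative one in the exon 2 line. The median difference between lines was 0.11 over the Rik-named rows and 0.044 over all rows.

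3110009E18Rik, a protein coding row of chromosome 1 (120121082–120188190, plus strand), was the most variable of the 69 within groups. It stood at 0.147, 3.18, 3.81 and 0.0851 TPM in the exon 2-3 controls and at 0.106, 4.80, 6.50 and 5.32 TPM in the cKO. It stood at 5.0, 4.6, 3.96 and 2.77 TPM in the exon 2 controls and at 4.80, 5.15, 0.151 and 0.0839 TPM in the cKO. The values thus fell in separate ranges: 5 libraries lay at 0.0839–0.151 TPM and the other 11 at 2.77–6.50 TPM. The low libraries were 2 exon 2-3 controls, 1 exon 2-3 cKO, 0 exon 2 controls and 2 exon 2 cKO, so the split did not follow the groups. The log2 difference was 0.90 (SE 0.68, limma adjusted p = 0.492) in the exon 2-3 line and -0.96 (SE 0.55, limma adjusted p = 0.999) in the exon 2 line.

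The start of Dbi, the gene of acyl-CoA binding protein, lies 14 bases from that of 3110009E18Rik on the other strand, and the rows share 15 bases. Dbi lay at 232–355 TPM in the 5 libraries with low 3110009E18Rik and at 233–347 TPM in the other 11, so these ranges overlapped almost wholly. Among the 69, 3110009E18Rik was the only row with a library below its own maximum divided by 10, which 111 of 2620 rows tested had (4.24%). A search of all rows tested for one whose lowest value in either of these library sets was at least 1.5 times the highest in the other found 3110009E18Rik itself and no other. Its residual standard deviation ranked 7th of 2620, where the median was 0.154 log2 units over the Rik-named rows and 0.128 over all rows.

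**Figure D3:**
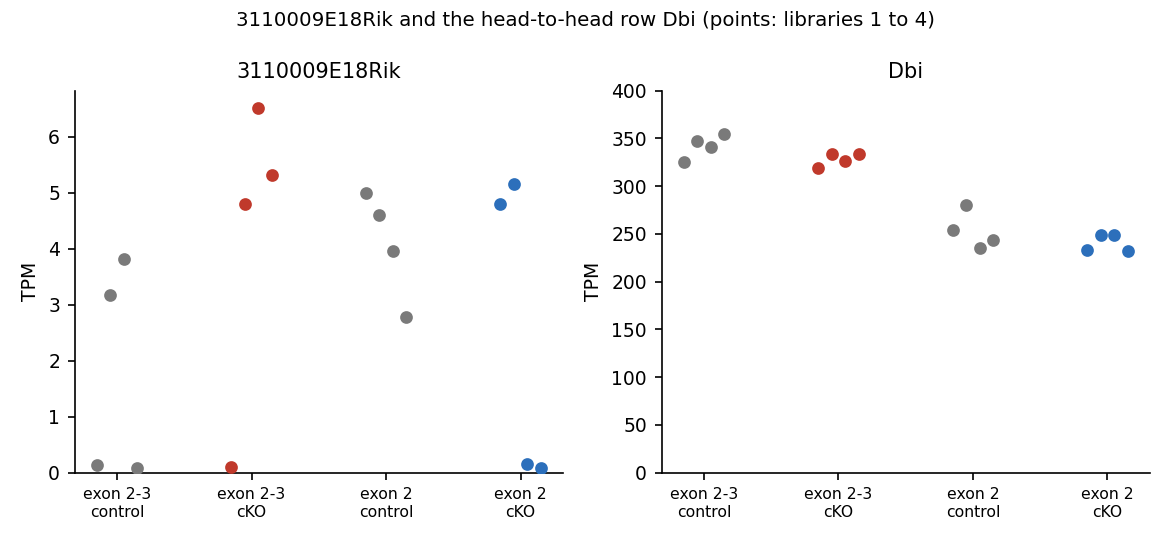
TPM (vertical axes, from 0) of 3110009E18Rik and of Dbi, its head-to-head neighbour, in each group; each point is 1 library. 3110009E18Rik lies near 0 in 5 libraries and at 2.77–6.50 TPM in 11, while Dbi differs between the lines and not along that split.

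Between the control groups, 26 of the 69 Rik-named rows passed the test, 37.7%, against 52.6% of all rows tested (14.4% higher and 38.1% lower). With TPM as deposited 10 of the 26 were higher in the exon 2-3 controls and 16 lower, whereas 15 of 22 were higher after quantile normalisation and 18 of 22 after median centring. The balance of directions is therefore relative to the scaling, and median centring alone moved the median of all rows from -0.14 to 0.041. Libraries of the control groups did not overlap for 25 of the 69, 8 higher and 17 lower in the exon 2-3 controls, against 45.5% of all rows (12.9% higher and 32.6% lower). The median log2 difference, exon 2-3 minus exon 2 controls, was -0.080 over the Rik-named rows and -0.14 over all. Of the 301 rows with a Gm number, 166 passed, 129 of them higher. These differences are between lines and between batches at once. The 4 cardiomyocyte markers summed to 11461–12804 TPM in exon 2-3 controls and 7956–9379 TPM in exon 2 controls, with 3 called higher in the former by limma. The 5 mesenchymal markers summed to 291–330 and 438–611 TPM. Of these 5, limma called 4 lower and 1 higher in the exon 2-3 controls. The part of these cells was not tested.

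Beside 2900009J06Rik, the rows furthest above the exon 2 controls in the exon 2-3 controls were E030030I06Rik (6.93 ± 0.822 against 4.39 ± 0.386 TPM, SD, n = 4), 2410006H16Rik, 1190007I07Rik (16.7 ± 2.00 against 11.2 ± 2.26 TPM) and 2310009B15Rik (21.9 ± 2.33 against 14.8 ± 1.11 TPM). Their log2 differences lay between 0.53 and 0.55. The snoRNA host 2410006H16Rik stood at 120, 123, 112 and 122 TPM in the exon 2-3 controls and at 75.2, 93.8, 81.0 and 76.0 TPM in the exon 2 controls. These ranges did not overlap (log2 difference 0.55, SE 0.068, limma adjusted p = 7.27e-06). Its cKO differences were -0.06 in the exon 2-3 line (limma adjusted p = 0.597) and -0.03 in the exon 2 line (limma adjusted p = 0.999). Of the small nucleolar RNAs it holds, Snord65 (0.58, limma adjusted p = 0.00932) and Snord49a (0.36, limma adjusted p = 0.0349) were also higher in the exon 2-3 controls, whereas Snord49b had a difference of -0.52 (limma adjusted p = 0.0539).

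Among called rows, the furthest below was E230014E18Rik, an lncRNA at 1.41, 1.33, 1.08 and 1.21 TPM there and at 2.46, 2.44, 2.40 and 2.57 TPM in the exon 2 controls. The ranges stood far apart (log2 difference -0.62, SE 0.090, limma adjusted p = 3.69e-05). It was followed, among rows whose control libraries did not overlap, by 8430429K09Rik (-0.46), 2810021J22Rik (-0.42), C030037D09Rik (-0.40) and A930033H14Rik (-0.40). These 4 calls were lost after median centring, with limma adjusted p of 0.204, 0.205, 0.0586 and 0.0548 in that order. The first 3 were also lost after quantile normalisation, with limma adjusted p of 0.124, 0.110 and 0.0562. By row coordinates, 8430429K09Rik overlaps Rnf185 (mean 19.7 TPM) on the other strand, and 2810021J22Rik overlaps Gm12258 (mean 4.23 TPM) on its own strand. No GENCODE exon of Rnf185 lies under those of 8430429K09Rik, where Gm11945 covers 1.78% of the exonic bases. No GENCODE exon of another gene on its own strand lies under those of 2810021J22Rik. The call of 8430429K09Rik (limma adjusted p = 0.0389) was kept in 1 of 8 fits that left out a library, the adjusted p reaching 0.0950, and that of 2810021J22Rik in 6 of 8, reaching 0.0563 without exon 2-3 control replicate 4. Of the abundant coding rows, 2610507B11Rik stood at 77.7 ± 5.68 and 102 ± 6.19 TPM (SD, n = 4; log2 difference -0.38, limma adjusted p = 8.84e-05). 9530068E07Rik stood at 154 ± 17.5 and 189 ± 6.75 TPM (log2 difference -0.29, limma adjusted p = 0.00350, and 0.0569 after median centring). 0610010K14Rik, at 88.2 ± 4.53 and 89.8 ± 7.63 TPM, did not pass (limma adjusted p = 0.812). None of the last 3 rows was called in either cKO contrast.

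**Figure D4:**
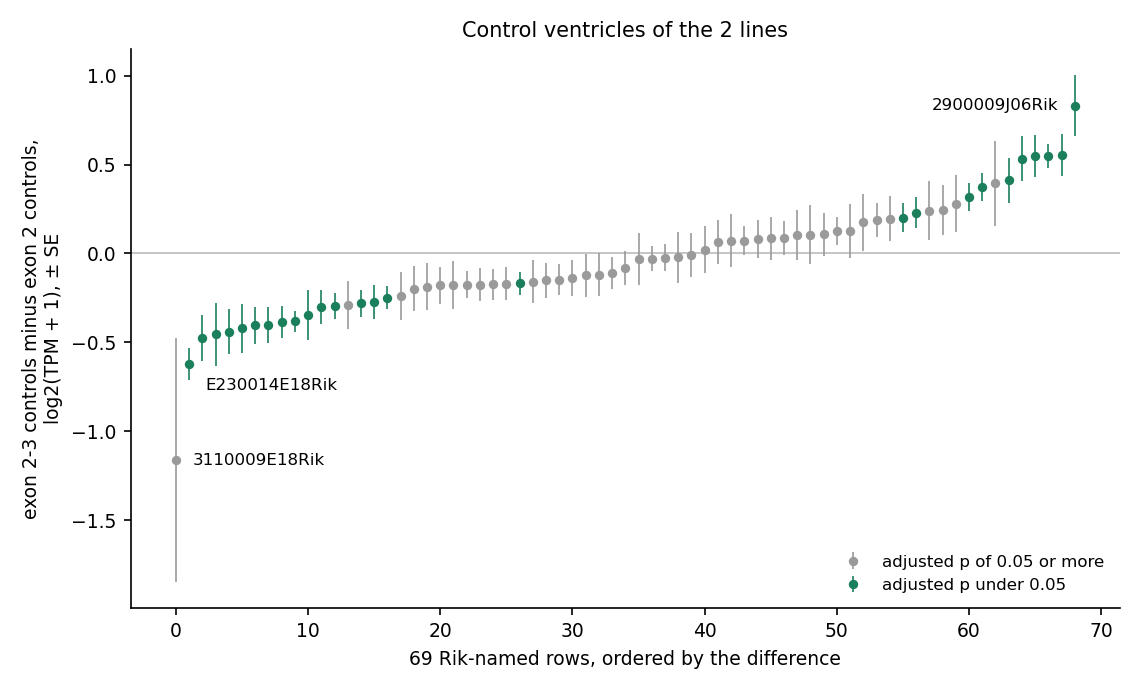
Exon 2-3 controls minus exon 2 controls on the log2(TPM + 1) scale (vertical axis) for the 69 Rik-named rows in order of the difference (horizontal axis); points are estimates, bars are ± 1 SE and green marks an adjusted p under 0.05. The called rows run from -0.62 (E230014E18Rik) to 0.83 (2900009J06Rik), and the lowest estimate, 3110009E18Rik, has the widest bar and did not pass.

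The head-to-head pairs were compared in the same contrast, with TPM as deposited. The pairs were not counted again under the other scalings, on which the balance of directions depended. Of 27 pairs, the Rik-named row was called between the control groups in 8 and its partner in 17, and both were called in 5. Over all rows tested 52.6% were called, 14.4% higher and 38.1% lower. In 3 of these 5 the members of the pair differed in opposite directions: 2900009J06Rik was higher in exon 2-3 controls and Ccnt2 lower (0.83 and -0.44), 2810025M15Rik higher and Rasal2 lower (0.32 and -0.53), and 2810408I11Rik higher and the cyclin Y-like gene Ccnyl1 lower (0.41 and -0.29). In the other 2, the Rik-named row and its partner were both lower. They were E130317F20Rik with the splicing regulator gene Ptbp1 (-0.48 and -0.43), and C030037D09Rik with Msi2 (-0.40 and -0.45). E130317F20Rik (mean 4.2 TPM) overlaps Ptbp1 (mean 157 TPM), whose exons lie under 8.2% of its exonic bases. Whether reads of the one were counted for the other was not tested. The call of C030037D09Rik was lost after quantile normalisation and after median centring. Partners called were lower in 14 pairs and higher in 3, and Rik-named rows called were higher in 3 and lower in 5. The estimates had the same sign in 9 of 27 pairs between the controls. They had the same sign in 9 pairs in the exon 2-3 cKO contrast and in 19 in the exon 2 cKO contrast. For the difference between lines it was 16. The partners called numbered 0 in each of these other contrasts.

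2810025M15Rik, with Rasal2, shows opposite directions between the controls at the highest level of these 3 pairs. It stood at 74.7, 67.3, 68.9 and 78.3 TPM in the exon 2-3 controls and at 62.6, 60.3, 59.0 and 49.9 TPM in the exon 2 controls, with no overlap (limma adjusted p = 0.00363). This call was lost with the replicate number as a block (limma adjusted p = 0.0567). Rasal2, whose start lies 243 bases away on the other strand, averaged 11.7 ± 0.977 and 17.3 ± 1.53 TPM (SD, n = 4; limma adjusted p = 8.54e-05). The rows overlap by 244 bases, which is 17.3% of the exonic bases of 2810025M15Rik.

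**Figure D5:**
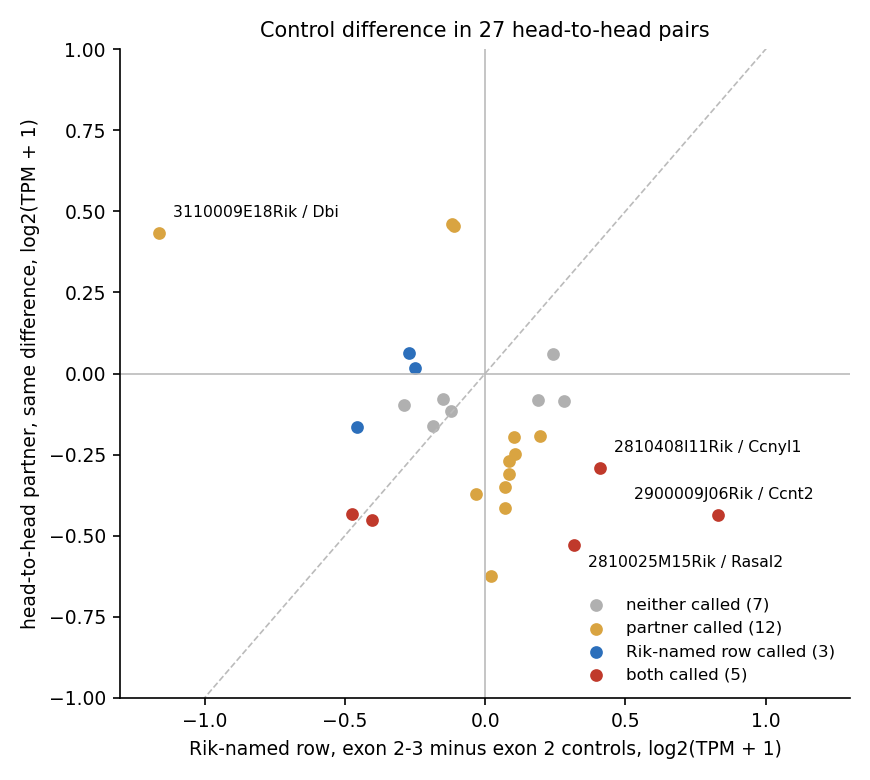
Exon 2-3 controls minus exon 2 controls, log2(TPM + 1), for the Rik-named row (horizontal axis) and its head-to-head partner (vertical axis) in 27 pairs; colours mark which of the pair passed the test and the dashed line marks equal differences. In 3 of the 5 pairs with both called, the Rik-named row was higher and the partner lower.

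Rows nested in another gene could likewise be set beside their host. B230216N24Rik, inside Pam on the same strand, had a control difference of -0.01 (limma adjusted p = 0.958), whereas Pam, the gene of a peptide amidating enzyme, averaged 135 ± 21.7 TPM in the exon 2-3 controls and 649 ± 87.7 TPM in the exon 2 controls (SD, n = 4). Whether the nested row and its host differ in this was not tested. A930033H14Rik (-0.40) and its host Rhobtb1 (-0.25, limma adjusted p = 0.00475) were both lower in the exon 2-3 controls.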

How the data were processed

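RNA-seq was done on 16 ventricle libraries, 4 in each of 4 groups taken from the sample titles. The authors deposited 1 table of TPM values, each library scaled to a fixed total; per the submitters' processing notes the tools were FastQC, Trim Galore 0.6.7, HISAT2 2.2.1, StringTie 2.2.1, featureCounts and DESeq2, with the build GRCm38, and their roles are not given in the sources used here. Per the labels' protocols, libraries came from stranded mRNA by one text and from RNA depleted of ribosomal RNA by another, and the extraction text names cortical neurons while every tissue label names ventricle. The table was held in part (chromosomes 1 and 10, and 11 up to position 106501211), 15.2–17.1% of each library's TPM, and 1 incomplete line was left out. RefSeq (GRCm38.p6) has the same symbol and coordinates for 5919 of 5921 rows, all 69 Rik-named rows included.

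Values were taken as log2(TPM + 1), a scale that understates changes of low rows, and the 2620 rows with a mean of at least 1 TPM were tested with limma 3.58.1 (trend in eBayes, two-sided) in R 4.3.3, with Benjamini-Hochberg adjustment over all of them and a threshold of 0.05. Each line was fitted on its 8 libraries; the difference between lines and the control difference came from 4 group means over 16 libraries. Tables and plots were made in Python 3.11.15 with pandas 2.3.3 and matplotlib 3.10.9, and the fit was tested on simulated data.

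Named were the rows called in a cKO contrast or between lines, the 3 largest exon 2 differences, up to 5 called rows without overlap in each direction between controls, the 5 highest levels, the rows at the limit, and the partners of these; other names were chosen after their values were seen. The rows, lists, motifs and tests were chosen with earlier results of these data known. The markers were cardiomyocyte, endothelial, epicardial, mesenchymal, erythroid, myeloid and neuronal. Alternatives changed the pseudocount, the filter, the scaling, the trend, the block, the weights and the libraries.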

Additional observations from a re-analysis of the deposited data

Results flagged for a closer look

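The difference between the lines' cKO effects passed the test for 2 Rik-named rows. It was 1.64 (SE 0.23, limma adjusted p = 0.000519) for B230206L02Rik, whose 4 exon 2-3 cKO libraries were all above their controls. It was -1.38 (SE 0.25, limma adjusted p = 0.00467) for 2900009J06Rik, whose 4 cKO libraries were all below the controls in the exon 2-3 line and all above them in the exon 2 line. In the exon 2-3 cKO, replicate 4 stood apart for 9530068E07Rik, at 185 TPM against 166 TPM in the nearest library. Its gap was 0.830 of the range of the group, just over Dixon's critical value for 4 samples. It was the only one in 76 groups examined (19 named rows in 4 groups), where chance alone gives about 1 in 20.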

How the results depend on the processing

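Of 69 Rik-named rows, 4 were called in the exon 2-3 line; the count was 2 with no filter on low values, 0 with a minimum of 5 TPM (31 rows tested), 9 after quantile normalisation, 8 after median centring and 1 to 4 with 1 library left out, where it was 1 without control replicates 1 or 2 or cKO replicates 2 or 3 and 2 without cKO replicates 1 or 4. Between lines, 2 were called, against 0 with a minimum of 5 TPM, 4 after quantile normalisation or hemoglobin rescaling, 5 after median centring, without the trend or with array weights, and 2 to 4 with 1 library left out (4 without exon 2-3 cKO replicate 1, exon 2 control replicate 2 or exon 2 cKO replicate 3). Between controls, 26 were called, against 16 with a minimum of 5 TPM and 22 to 25 with 1 library left out. In the exon 2 line limma called 0 under every alternative run. All 4 rows called in the exon 2-3 line, among them both rows called between lines, averaged under 5 TPM. The minimum of 5 TPM left them out before testing, so its counts of 0 do not bear on those calls. The fall to 16 between controls goes with fewer rows. The cause of the other changes was not tested. With the replicate number as a block, the counts were 3 (exon 2-3), 0 (exon 2), 2 (between lines) and 16 (controls); 4930523C07Rik (limma adjusted p = 0.0550) and 4933428G20Rik (limma adjusted p = 0.0669) lost their exon 2-3 calls with the block. Same-numbered cKO and control libraries had deviations correlating at -0.029 to 0.21 in the exon 2-3 line and 0.064 to 0.20 in the exon 2 line, so the numbers were not taken to pair libraries, and not every library correlated best with its own number. The control difference of 0610010K14Rik (-0.024, not called) changed sign to 0.16 after median centring, 0.019 after hemoglobin rescaling and 0.0063 with the replicate block, and ran from -0.056 to 0.033 with 1 library left out. Of 569 recomputed values of 32 named differences, 507 kept direction and side of the threshold, 48 lost the call, 9 gained one and 5 changed sign. B230206L02Rik kept its exon 2-3 call in all 16 alternatives that tested it, and its call between lines in all 24. Rows under 2 TPM, and read depth that TPM does not keep, limit what small differences can show.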
